A study of Mus musculus with 15 samples.

Results

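Loss of the 2 class I histone deacetylases Hdac1 and Hdac2 from mouse embryonic fibroblasts was compared with fibroblasts that kept both enzymes, with tamoxifen given to both groups. The comparison used 6 of the 15 arrays of the series, chosen by their labels: 3 arrays of floxed cells with tamoxifen and a micro-RNA against Hdac2, and 3 arrays of +/+ cells with tamoxifen. All genes of the array were examined, and 13382 of 18193 measured gene symbols passed a filter on low signal. Of these, 5115 genes were higher and 3142 were lower in the cells that had lost both enzymes.

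RNA abundance was measured on Affymetrix Mouse 430v2 arrays, each with 45037 probe sets in the deposited table, in primary male fibroblasts. The double-loss cells were HDAC1 fl/fl, carried a retrovirus for Cre-ERT2 (a Cre recombinase that works only with tamoxifen) and a retrovirus for a micro-RNA against HDAC2, and received 200 nM tamoxifen, which deletes Hdac1. The +/+ cells, called WT by the labels, had intact Hdac1 alleles and received 200 nM tamoxifen too. The sources used here do not give which viruses the +/+ cells carried or whether they came from littermates of the floxed cells. Levels are also quoted for the other floxed groups of 3 arrays each: the ethanol control and the Hdac1 KO with tamoxifen, both with a scrambled micro-RNA, and the Hdac2 knockdown (Kd) with ethanol. Tamoxifen was therefore matched, but the floxed alleles, the origin of the cells and the viruses differed together with the enzymes, and these cannot be told apart within the comparison. The labels do not state that the 3 arrays of a group are independent cultures. The p-values therefore reflect only how far these samples vary, and that variation can be technical.

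The paralogues Hdac1 and Hdac2 take acetyl groups off the tails of histones and off other proteins. They work inside the Sin3, NuRD and CoREST complexes, which DNA-binding factors bring to genes, and they can pair with each other and take each other's place. In fibroblasts their joint loss is known to stop cell division, and the cyclin-dependent kinase inhibitor Cdkn1a (p21) is a classical gene held down by them.

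Group differences are given as log2 fold change of intensity plus 16, double-loss minus +/+, with the standard error (SE) of limma's fit and the Benjamini-Hochberg adjusted p. A gene passed at an adjusted p under 0.05. The added 16 makes the changes of dim genes look smaller than they are, and levels of different genes are not comparable on this array.

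The promoter windows of 8 genes are shown first, because they belong to genes of the largest movements described below. Each is 300 bases long, 250 before to 50 after the RefSeq start of the gene on GRCm38.p6, read 5′ to 3′ on the gene's strand. The genes were chosen after their values were seen. In the first 3, mitotic genes that were lower in double-loss cells, capitals mark CCAAT and TTTGAA on either strand. TTTGAA is the core of the CHR element and CCAAT the box bound by NF-Y, and both are known in promoters of mitotic genes. Plk1 (mitotic kinase) lies at chr7:122159185-122159484 on the plus strand, Cdc20 (activator of the anaphase-promoting complex) at chr4:118437294-118437593 on the minus strand and Ccnb2 (cyclin B2) at chr9:70421505-70421804 on the minus strand.
Plk1: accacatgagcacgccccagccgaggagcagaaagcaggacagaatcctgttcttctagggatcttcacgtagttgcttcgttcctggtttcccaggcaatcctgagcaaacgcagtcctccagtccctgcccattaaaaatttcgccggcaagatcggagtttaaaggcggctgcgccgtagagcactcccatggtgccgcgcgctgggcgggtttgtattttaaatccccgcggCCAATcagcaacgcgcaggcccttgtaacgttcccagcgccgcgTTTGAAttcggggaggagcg
Cdc20: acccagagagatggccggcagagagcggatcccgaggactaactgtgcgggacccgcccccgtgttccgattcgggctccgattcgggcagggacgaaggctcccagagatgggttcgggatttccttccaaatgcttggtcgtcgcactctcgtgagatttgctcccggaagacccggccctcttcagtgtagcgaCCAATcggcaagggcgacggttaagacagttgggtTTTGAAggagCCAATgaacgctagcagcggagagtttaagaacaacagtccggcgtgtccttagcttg
Ccnb2: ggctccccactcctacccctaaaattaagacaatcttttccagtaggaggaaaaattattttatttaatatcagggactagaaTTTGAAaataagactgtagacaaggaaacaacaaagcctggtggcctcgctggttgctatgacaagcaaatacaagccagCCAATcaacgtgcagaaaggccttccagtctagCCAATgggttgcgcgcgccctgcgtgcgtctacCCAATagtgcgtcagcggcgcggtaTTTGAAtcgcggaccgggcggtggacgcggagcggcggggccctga

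The next 2 belong to enzymes of cholesterol synthesis, Idi1 at chr13:8885356-8885655 and Lss at chr10:76531355-76531654, both on the plus strand. Capitals mark CCAAT and the Sp1-type GGGCGG on either strand.
Idi1: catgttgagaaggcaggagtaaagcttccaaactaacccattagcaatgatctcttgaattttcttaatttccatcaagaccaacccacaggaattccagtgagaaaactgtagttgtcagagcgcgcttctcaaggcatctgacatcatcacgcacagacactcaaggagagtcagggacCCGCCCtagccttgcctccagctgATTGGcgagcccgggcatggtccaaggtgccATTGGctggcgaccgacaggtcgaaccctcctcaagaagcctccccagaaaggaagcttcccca
Lss: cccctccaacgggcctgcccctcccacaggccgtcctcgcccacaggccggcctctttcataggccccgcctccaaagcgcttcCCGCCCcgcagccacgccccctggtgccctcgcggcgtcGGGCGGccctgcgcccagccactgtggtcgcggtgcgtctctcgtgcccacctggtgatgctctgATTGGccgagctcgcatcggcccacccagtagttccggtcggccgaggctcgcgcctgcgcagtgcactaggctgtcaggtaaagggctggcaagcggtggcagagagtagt

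The last 3 belong to genes among the 15 with the largest rise, Bex1 at chrX:136215464-136215763, Bex2 at chrX:136068187-136068486 and Cox6b2 at chr7:4753045-4753344, all on the minus strand. Capitals mark GGGCGG on either strand.
Bex1: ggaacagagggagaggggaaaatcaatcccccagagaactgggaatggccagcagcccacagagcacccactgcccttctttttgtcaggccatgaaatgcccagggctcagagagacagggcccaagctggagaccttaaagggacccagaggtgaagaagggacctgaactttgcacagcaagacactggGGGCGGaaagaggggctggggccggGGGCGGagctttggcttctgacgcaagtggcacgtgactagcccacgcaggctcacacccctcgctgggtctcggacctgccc
Bex2: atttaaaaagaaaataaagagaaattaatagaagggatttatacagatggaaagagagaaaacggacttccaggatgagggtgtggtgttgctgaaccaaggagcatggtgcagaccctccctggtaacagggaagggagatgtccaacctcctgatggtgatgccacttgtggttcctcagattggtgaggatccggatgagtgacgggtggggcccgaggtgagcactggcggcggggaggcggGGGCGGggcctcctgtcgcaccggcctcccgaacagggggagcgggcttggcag
Cox6b2: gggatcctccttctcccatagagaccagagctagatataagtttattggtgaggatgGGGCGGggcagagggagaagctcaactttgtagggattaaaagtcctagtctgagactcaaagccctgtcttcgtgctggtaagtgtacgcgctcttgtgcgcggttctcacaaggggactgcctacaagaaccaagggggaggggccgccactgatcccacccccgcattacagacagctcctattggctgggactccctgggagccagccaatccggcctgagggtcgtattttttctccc

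Over the 10734 tested genes with a RefSeq promoter entry, 38.6% of the windows held CCAAT, 12% TTTGAA and 62.6% GGGCGG, each counted on both strands. Of 39 mitotic genes with an entry, 26 (66.7%) held TTTGAA and 29 (74.4%) held CCAAT. Among genes at least 2-fold lower in double-loss cells these shares were 25.1% and 47.2%, and among genes at least 2-fold higher 10.0% and 40.3%. Of 16 genes of cholesterol synthesis, 15 (93.8%) held CCAAT and 15 (93.8%) held GGGCGG. DNA replication genes, of which 33 had an entry, held TTTGAA in 4 (12.1%), near the share of all genes. These are matches of letters in a window, not binding sites.

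The targeted genes were examined first. The Hdac1 probe set read 106, 158 and 203 in the double-loss arrays against 4807, 4419 and 4191 in the +/+ arrays, a log2 fold change of -4.75 ± 0.15 (SE; adjusted p = 1.716e-13). The most intense Hdac2 probe set read 1030, 1013 and 1031 against 7694, 7471 and 7504 (-2.86 ± 0.07, adjusted p = 2.118e-14), and another averaged 578.8 against 4350. The remaining Hdac2 probe set was near background in both groups (21.6 against 24.3) and shows nothing. Both genes thus followed the labels on every array. Hdac2 RNA in double-loss cells lay close to that of the knockdown alone (mean 1025 against 958), so part of the Hdac2 message remained. Of the other class I enzymes, Hdac8 was higher (126, 140 and 128 against 90.5, 84.2 and 88.7; 0.51 ± 0.10, adjusted p = 0.0004511, and 0.26 after quantile normalization), and Hdac3 gave 0.06 ± 0.07 (adjusted p = 0.5217), with a sign that turned when arrays were brought to a common median or distribution.

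Fibroblast markers were present in both groups. The summed level of 12 fibroblast markers ran from 188300 to 198900 in double-loss arrays and from 183400 to 193700 in +/+ arrays, which overlap. Within the list, S100a4 and Thy1 fell and Fap, a serine protease of activated fibroblasts, was above background in double-loss arrays only. Thy1 ran from 302 to 367 in double-loss arrays and from 1187 to 1299 in +/+ arrays. It ran from 271 to 291 in the floxed control, 559 to 760 in the KO and 109 to 151 in the Kd. The +/+ cells thus stood high for Thy1, and the double-loss cells were not below the floxed control. Macrophage markers summed to 487 to 667 against 424 to 555, with 7 of 13 at background on all arrays of each group, among them Ptprc, Itgam and Mrc1. Endothelial markers summed to 433 to 502 against 264 to 302, with 6 of 10 at background in double-loss cells and 8 of 10 in +/+ cells; Kdr (94.3, 53.1 and 84.1 against 20.4, 21.6 and 19.2) and Egfl7 carried the difference, and the call of Egfl7 was lost (0.17, adjusted p = 0.2287) when probe sets that can bind several transcripts were left out. Epithelial markers summed to 456 to 517 against 736 to 901, mostly through Krt19 (196 to 254 against 483 to 658). Of 7 tested epithelial markers only Krt19 passed, and their median change was 0.01. Skeletal muscle markers summed to 589 to 800 against 1389 to 1448, mostly through Acta1. Of 8 tested muscle markers Acta1 fell but 4 rose (median 0.23), where 23.5% of all genes fell and 38.2% rose. Whether these cells or genes had a part in the results below was not tested. In such bulk samples, fewer cells of a type and less RNA per cell cannot be told apart.

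**Figure D1:**
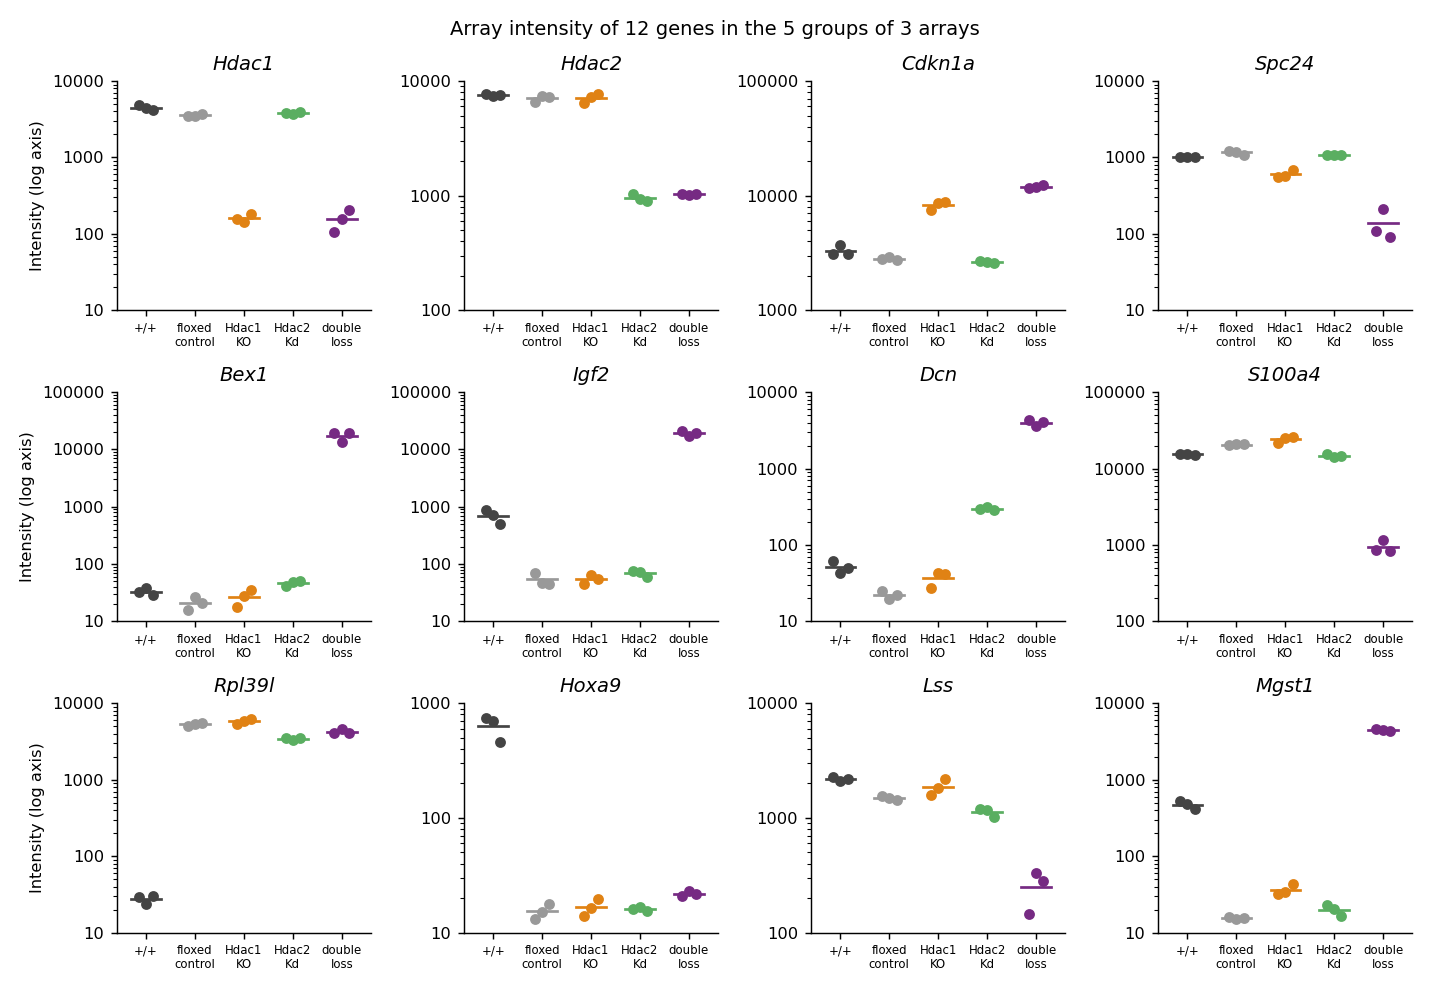
Intensity of 12 genes on each array (points, log axis) in the 5 groups of 3 arrays, with the group mean as a bar. Hdac1 was low in both groups given tamoxifen with floxed alleles and Hdac2 in both groups with its micro-RNA; Bex1 and Dcn stood highest in the double-loss arrays, while Rpl39l and Hoxa9 separated the +/+ arrays from all 12 floxed arrays.

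A majority of the measured genes differed between the groups. Of 13382 genes, 8257 passed (61.7%): 5115 were higher in double-loss cells (38.2%) and 3142 lower (23.5%). The arrays of the 2 groups did not overlap for 9056 genes (67.7%), of which 5709 were higher (42.7%) and 3347 lower (25%). At a change of at least 2-fold, 1346 were higher (10.1%) and 570 lower (4.26%), and at 4-fold 363 and 124. The median absolute log2 change of the genes that passed was 0.57, and the median SE of all genes was 0.09. The split between higher and lower depended on scaling: the double-loss arrays were brighter (array medians 29.1 to 30.7 against 25.7 to 27.3), and the median change of all genes was 0.09. After quantile normalization 4263 genes were higher and 4380 lower, and with arrays centred on their median 3897 and 4926, so the share of higher genes fell from 61.9% to 49.3% and 44.2%. Those scalings shifted the median gene to -0.02 and -0.08. Small changes near these shifts have no settled direction.

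**Figure D2:**
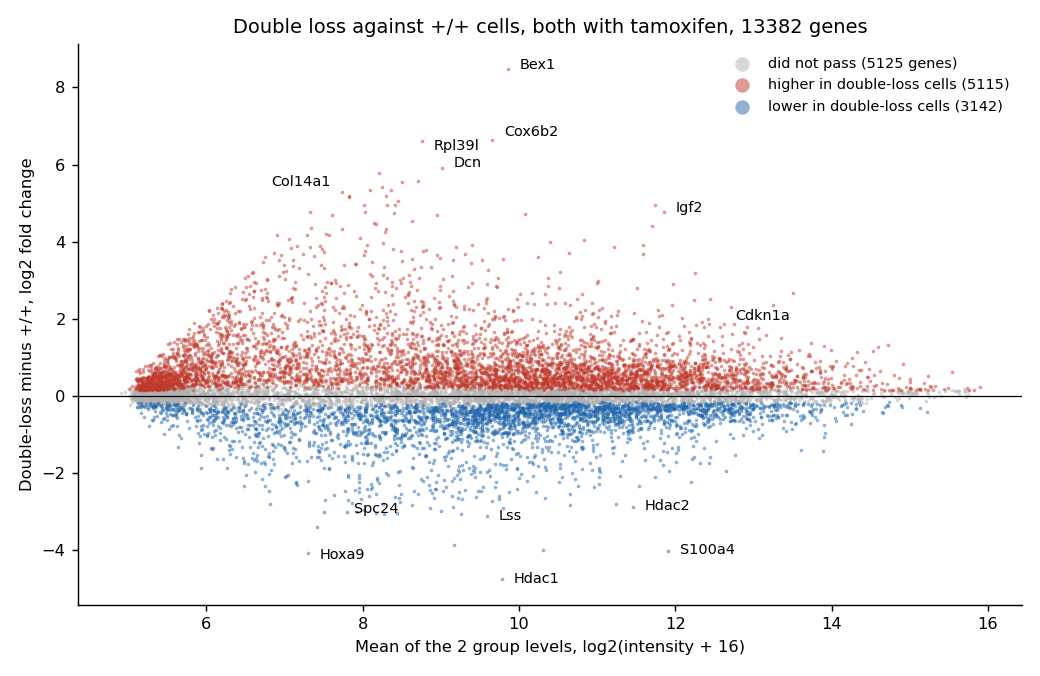
Log2 fold change (double-loss minus +/+) of 13382 genes against the mean of their 2 group levels, with 5115 higher genes in red, 3142 lower genes in blue and the others in grey. The largest changes were upward, Bex1 at 8.46, and the dim genes on the left are limited in size by the added 16.

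The other floxed groups were used to see which group stood apart. They share no array with the comparison, but each count below also includes the double-loss and +/+ arrays. The genes counted were selected by the difference between those arrays. Part of each share therefore follows from the selection, and the shares of all tested genes are over unselected genes. Among the 1346 genes at least 2-fold higher, the 3 double-loss arrays stood above all 12 other arrays in 1274 (94.7%; 30.3% of all tested genes did so). The +/+ arrays stood below all 12 floxed arrays in 229 (17%; 4.12% of all tested genes). Among the 570 at least 2-fold lower, the double-loss arrays lay below the other 12 in 498 (87.4%; background 14.1%) and the +/+ arrays above the other 12 in 99 (17.4%; background 4.22%). For most of these large changes, then, the double-loss cells were the group apart, and in a smaller number the +/+ cells were. Among the 229 and 99 genes with the +/+ arrays apart, 176 and 49 met the double-loss rule as well.

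The genes with the largest rise were at low levels in the +/+ cells. Bex1, a small adaptor protein of neurons encoded on the X chromosome, read 19669, 13581 and 19218 in double-loss arrays against 32.7, 37.8 and 28.8 in +/+ arrays (8.46 ± 0.16, adjusted p = 4.005e-16). The floxed control, KO and Kd averaged 21.2, 26.8 and 46.9, so neither single loss brought the gene up to a comparable level. Its relative and X-linked neighbour Bex2 read 1772, 1672 and 1746 against 27.9, 27.8 and 25.2 (5.34 ± 0.07), with 21.2 to 24.4 in the other groups. Bex4, another member of the family, read 137, 76.6 and 165 against 15, 13.5 and 13.2. Bex1 and Bex2 were named by a rule that required arrays without overlap. The arrays of the 2 groups did not overlap for Bex4 either, as for 67.7% of all tested genes. Bex4 was under the 40th percentile of every +/+ array.

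Cox6b2, the testis form of a cytochrome c oxidase subunit, read 7743, 8030 and 8239 against 67.3, 73.0 and 56.0 (6.63 ± 0.14, adjusted p = 1.925e-15). Here the Hdac1 KO alone had an intermediate mean of 350.3, while the control (70.3) and Kd (62.2) lay near the +/+ cells. Dcn, the proteoglycan decorin, read 4297, 3600 and 4041 against 61.9, 42.4 and 49.6 (5.90 ± 0.12), and here the Kd was intermediate (298). Vip, a neuropeptide, had the same order (16576, 20221 and 20003 against 588, 610 and 601; Kd mean 3153, KO mean 1022). Notch3 (1785, 2069 and 2028 against 32.0, 29.2 and 29.9) and the Notch ligand Dner (1322, 996 and 1774 against 19.2, 20.8 and 24.1) followed, with KO means of 87.6 and 347. The remaining genes of the 15 with the largest rise were Rpl39l, Itih5, Gpx3, Clca3a2, Abca1, Col14a1, Lpl, Prss12 and Syt17, and the 15 spanned log2 changes from 5.04 to 8.46.

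S100a4, a calcium-binding protein that is often used to mark fibroblasts, was among the 15 deepest falls. It read 849, 1156 and 839 in double-loss arrays against 15466, 15489 and 14921 in +/+ arrays (-4.01 ± 0.10, adjusted p = 1.942e-14). The control, KO and Kd averaged 20640, 24200 and 14820, so no other group came near the level of the double-loss arrays. The interferon-inducible Ifi202b (232, 497 and 211 against 5239, 4731 and 4609) and the procollagen-binding Pcolce2 (52.5, 74.9 and 59.5 against 679, 538 and 622) were also below the arrays of every other group. Cyp26b1, which degrades retinoic acid, read 28.6, 43.6 and 36.3 against 488, 657 and 470, and the pocket protein Rbl1 (p107) 160, 186 and 156 against 1464, 1406 and 1383. Of the 15 deepest falls, the double-loss arrays were lowest of all 15 arrays in 11 and the +/+ arrays highest in 8. Ifi202b, Nipal1, Cyp26b1 and Slc16a3 met both.

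A group of genes set the +/+ cells apart from all floxed cells, whatever their treatment. Rpl39l, a ribosomal protein paralogue, averaged 27.6 in +/+ cells and 3431 to 5784 in the control, KO and Kd means, with 4067, 4666 and 4065 in double-loss cells. Its log2 change of 6.62 ± 0.08 was therefore the third largest of the comparison and at the same time -0.44 ± 0.08 against the KO. In the reverse direction the homeobox gene Hoxa9 read 746, 708 and 459 in +/+ arrays and 20.9, 23.0 and 21.9 in double-loss arrays (-4.08 ± 0.13), with 15.4 to 16.6 in the other floxed groups. Hoxa10 (136, 99.5 and 71.1 against 16, 15.3 and 15.8) and Hoxc10 (88.5, 60.6 and 43.0 against 13.9, 16.9 and 14.7) had the same order. Sox2, a stem cell transcription factor, read 606, 472 and 429 in +/+ arrays against 43.2, 55.0 and 45.8, with 18.4 to 42.4 elsewhere. The ranges given for the other floxed groups of Rpl39l, Hoxa9 and Sox2 include the ethanol control. That control kept Hdac1 and Hdac2 RNA (means 3557 and 7051). Within the +/+ comparison alone, loss of the deacetylases and origin of the cells cannot be told apart for these genes, and the cause was not tested. As the mean of their probe sets, Hoxa9 and Hoxa10 gave -2.13 and -0.97.

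Position genes as a list showed no common direction. Of 29 tested Hox and other positional genes, 6 rose and 11 fell, with a median of 0.06 that became -0.09 and -0.11 under the other scalings. Those that rose included the lung and gut mesenchyme factor Foxf1 (885, 859 and 917 against 189, 219 and 219), Shox2 (78.6, 142 and 155 against 25.8, 26.7 and 22.5) and Hoxb4 (166, 181 and 139 against 48.7, 48.2 and 46.6). As the mean of their probe sets, Foxf1 and Shox2 gave 1.31 and 0.88. The Hdac1 KO against the same +/+ arrays had 1 higher and 14 lower, where 12.8% of all genes were higher and 11.3% lower.

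Several genes were higher in +/+ cells than in the Hdac1 KO. For Igf2 and Mgst1 the +/+ level lay between those of the KO and the double-loss cells. For Cxcl14 and Tfpi the double-loss level lay between those of the KO and the +/+ cells. Igf2, the fetal insulin-like growth factor, read 21069, 17009 and 19176 in double-loss arrays and 886, 723 and 495 in +/+ arrays (4.77 ± 0.18), but only 54.2 to 69.7 in the 3 other floxed groups. Mgst1, a membrane glutathione transferase, read 4545, 4480 and 4385 against 521, 484 and 410, with 15.6 to 36.5 elsewhere. Against the KO the same genes changed by 8.09 and 6.42, so the +/+ comparison, which shares the double-loss arrays, gave the smaller value. The mean of the Igf2 probe sets gave 3.05 against +/+. The chemokine Cxcl14 fell by 2.68 on the log2 scale against +/+ (293, 305 and 378 against 2314, 2084 and 2077) while it rose by 3.11 against the KO (mean 23.5). Tfpi, the tissue factor pathway inhibitor, behaved likewise (1099, 1051 and 1169 against 2404, 2491 and 2550; KO mean 87.0; -1.16 against +/+ and 3.45 against the KO). For Cxcl14 and Tfpi the direction thus depended on which cells served as reference.

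Genes of DNA replication and mitosis fell together in the double-loss cells. Of 47 tested mitotic genes 46 fell and 1 rose, where 23.5% of all genes fell, and the list median was -2.02 against 0.09 for all genes. The kinetochore protein Spc24 read 108, 214 and 90.7 against 1022, 1005 and 1012 (-2.83 ± 0.19, adjusted p = 1.567e-09), and the condensin subunit Ncapg 139, 352 and 125 against 1500, 1492 and 1347 (-2.87 ± 0.24). Survivin (Birc5) read 763, 1326 and 694 against 6413, 6352 and 5916, and the kinase Aurka 244, 421 and 241 against 1979, 2110 and 1943. Every array of the double-loss group lay below every +/+ array for these genes, as for 25% of all tested genes. Nuf2, a partner of Spc24 in the Ndc80 complex, and the spindle-binding Ska1 fell by 2.78 and 3.04 on the log2 scale, the latter by 1.21 as the mean of its probe sets. The exception was securin (Pttg1), which rose (9172, 9426 and 9489 against 6392, 6326 and 5783; 0.60 ± 0.07).

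Of the 3 mitotic genes whose promoters are printed, Plk1 read 289, 475 and 254 against 2104, 2084 and 1989 (-2.59 ± 0.16). Cdc20 fell less (1966, 2777 and 2058 against 7965, 7144 and 7102; -1.72 ± 0.10), and Ccnb2 lay between (912, 1521 and 795 against 4119, 4103 and 3701; -1.92 ± 0.16). All 3 were lower without overlap of arrays, as were 25% of all tested genes.

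Of 42 replication genes 38 fell and none rose, with a median of -1.36, where 23.5% of all genes fell. Thymidine kinase Tk1 read 221, 481 and 257 against 2340, 2492 and 2245 (-2.90 ± 0.19, adjusted p = 1.235e-09). The helicase loader Cdc6 read 269, 496 and 164 against 1616, 1539 and 1703, the helicase cofactor Cdc45 56.2, 71.3 and 41.9 against 432, 480 and 437, and Mcm10 49.0, 105 and 68.9 against 559, 536 and 541. As the mean of probe sets, Cdc45 and Mcm10 gave -1.34 and -1.09. The polymerase clamp Pcna, among the brightest genes that fell, lost less (10035, 12200 and 9528 against 22156, 23070 and 20612; -1.06 ± 0.09). Pclaf, a clamp-binding factor (2837, 4414 and 2698 against 12650, 12327 and 12420), and Mcm5 (2659, 4040 and 2416 against 10616, 9892 and 9441) were the other bright ones.

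Within the double-loss group, replicate 2 stood closest to the +/+ cells in this programme. The list median relative to the +/+ mean was -2.22, -1.52 and -2.30 in replicates 1, 2 and 3 for mitosis and -1.47, -1.10 and -1.60 for replication. Replicate 2 was the nearest of the 3 to the +/+ mean in 45 of 47 mitotic genes (95.7%) and 40 of 42 replication genes (95.2%), against 38.1% of all genes. The proliferation marker Mki67, at 1127, 2244 and 751, showed it as well. Without replicate 2, 46 mitotic and 39 replication genes fell, with medians of -2.28 and -1.56. For p53 targets and lysosomal genes the 3 arrays differed little (medians 1.22, 1.38 and 1.30, and 0.93, 0.98 and 1.02).

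**Figure D3:**
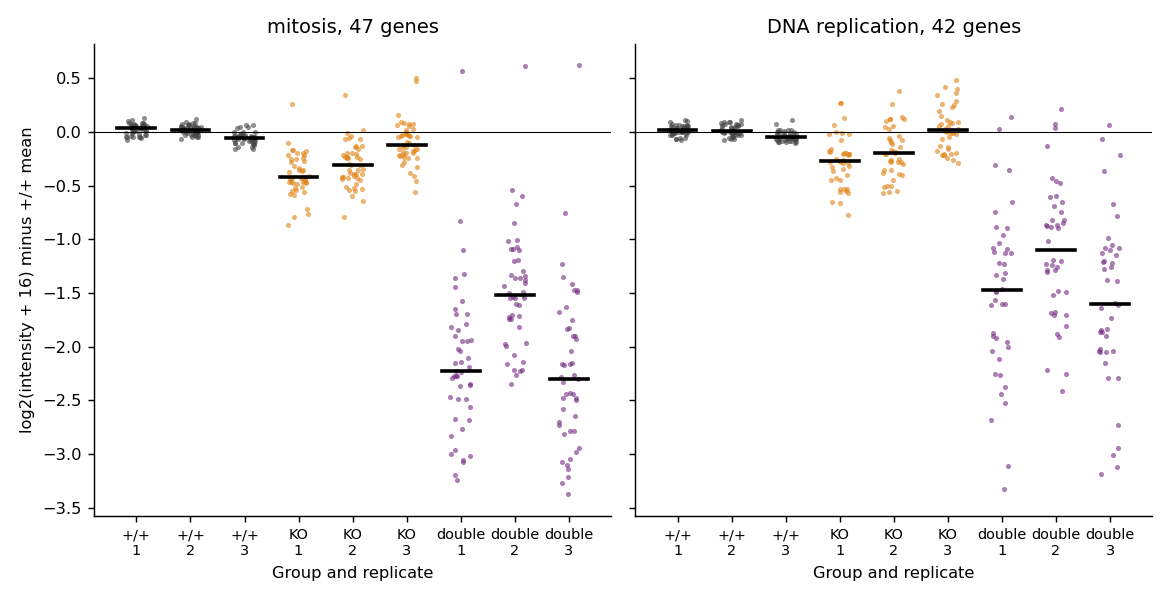
Level of each mitotic (left) and replication gene (right) on each array of the +/+, Hdac1 KO and double-loss groups, as log2(intensity + 16) minus the +/+ mean; bars are list medians per array. The double-loss arrays lay lowest, replicate 2 above the other 2, with medians of -2.22, -1.52 and -2.30 for mitosis.

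Against the same +/+ arrays, which both comparisons share, the Hdac1 KO had 10 lower mitotic genes and 7 lower replication genes, with medians of -0.29 and -0.14, where 11.3% of all genes were lower. The difference between double-loss and KO cells, tested directly, passed downward for 46 of 47 and 39 of 42 genes (medians -1.75 and -1.25; 20.6% of all genes passed downward there). In the +/+ cells, 3 mitotic and 12 replication genes were lower than in the floxed control, with medians of -0.16 and -0.20, where 6.93% of all genes were lower. In the KO, 19 mitotic genes were lower and 1 higher than in that control (median -0.43). Of the replication genes 29 were lower and 1 higher there (median -0.39), where 4.64% of all genes were lower and 19.5% higher. Tamoxifen was not matched in these comparisons with the control.

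Of 27 regulators of the G1 phase 13 rose and 9 fell (median 0.19), where 38.2% and 23.5% of all genes did. Of the 7 inhibitors in the list 6 rose, and Cdkn2a gave 0.84 without passing. Cdkn1a, the p21 inhibitor, read 11557, 11974 and 12487 against 3109, 3706 and 3081 (1.86 ± 0.08, adjusted p = 1.106e-11), and Cdkn1c, the imprinted inhibitor p57, 2663, 3069 and 2950 against 425, 486 and 413 (2.67 ± 0.13). The Ink4 inhibitor Cdkn2b read 1010, 658 and 909 against 234, 240 and 238. Their levels in the KO differed: Cdkn1a was already at 8308 there, Cdkn1c at 176. The pocket proteins moved in opposite directions: Rbl2 (p130), typical of resting cells, read 3344, 3451 and 3482 against 824, 823 and 814 (2.04 ± 0.10), Rb1 2324, 2189 and 2397 against 1236, 1215 and 1085, while Rbl1 fell by 2.97 on the log2 scale. The atypical repressors E2f7 (199, 411 and 185 against 1427, 1481 and 1344) and E2f8 fell, and so did Myc (-0.97 ± 0.10) and E2f1 (-0.81 ± 0.09). The D-type cyclins Ccnd1 (0.86 ± 0.08) and Ccnd2 (1.05 ± 0.08) rose. As the mean of probe sets, E2f8, E2f1 and Rb1 gave -1.35, -0.48 and 1.5.

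Targets of the tumour suppressor p53 were higher as a group. Of 28 tested genes 24 rose and 1 fell, with a median of 1.34, where 38.2% of all genes rose. Perp, a desmosome-associated death effector, had the largest change (5611, 5378 and 6146 against 408, 458 and 413; 3.69 ± 0.08, adjusted p = 2.074e-15). The floxed control already averaged 1638 for Perp, so the +/+ reference lay low for this gene. Pmaip1 (Noxa) read 4150, 4580 and 4752 against 757, 884 and 839, Eda2r 2373, 2775 and 2441 against 423, 484 and 483, and Mdm2, which degrades p53, 4986, 5204 and 5014 against 1162, 1130 and 1189. Ccng1, one of the brightest genes that rose, read 29936, 30213 and 30903 against 14215, 13937 and 13282. The single fall, Tnfrsf10b (86.8, 72.0 and 79.6 against 116, 78.3 and 119; -0.32 ± 0.11), was a dim gene with overlapping arrays, and it gave 0.18 when probe sets that can bind several transcripts were left out.

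The p53 list passed upward for 22 of 28 genes in the KO against the same +/+ arrays (median 0.72), where 12.8% of all genes did. In double-loss against KO cells 20 of its genes did (median 0.51), where 36.1% of all genes were higher. For Mdm2 the KO mean was 2757, between +/+ (mean 1160) and double-loss, and for Fas 659 between 418 and 1826.

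Lysosomal and autophagy genes rose together. Of those tested, 25 of 25 were higher (median 0.96), where 38.2% of all genes were. With arrays centred on their median 24 of them still were. The cathepsin Ctsf read 203, 176 and 331 against 27.2, 26.5 and 28.5, the sialidase Neu1 1000, 859 and 900 against 204, 200 and 164, and acid alpha-glucosidase Gaa 6361, 5722 and 6705 against 1649, 1734 and 1624 (1.90 ± 0.09, adjusted p = 1.716e-11). Glb1, the source of beta-galactosidase activity used to stain senescent cells, read 2980, 3230 and 3062 against 1262, 1290 and 1278 (1.26 ± 0.07), and cathepsin D (Ctsd) rose by 1.32 ± 0.09. Tfeb, the master regulator of lysosomal genes, rose by 0.74 ± 0.08 at a low level. The mean of the Neu1 probe sets gave 1.33. In double-loss against KO cells 25 were higher too, where 36.1% of all genes were. The KO against +/+ had 9 higher and 2 lower, where 12.8% and 11.3% of all genes were.

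Cholesterol synthesis fell. Of 19 tested genes 18 were lower and none higher (median -0.91), where 23.5% of all genes were lower. Under both other scalings 19 were lower. Lanosterol synthase Lss read 144, 329 and 283 against 2294, 2082 and 2194 (-3.11 ± 0.20, adjusted p = 8.969e-10), though the mean of its probe sets gave -1.64. Idi1, an early isoprenoid enzyme, read 1830, 2531 and 2106 against 10705, 10039 and 9606 (-2.23 ± 0.10), squalene synthase Fdft1 2425, 3246 and 2428 against 8792, 8576 and 7702, and Fdps and Nsdhl each fell by 1.54 on the log2 scale. HMG-CoA synthase Hmgcs1 (-0.96 ± 0.10) and squalene epoxidase Sqle (-0.57 ± 0.08) fell less. Against the floxed control, which had ethanol and not tamoxifen, 15 of 19 genes were higher in +/+ cells (median 0.40), where 21.5% of all genes were. The KO, which had tamoxifen, also had 11 higher and none lower than this control (median 0.30), where 19.5% and 4.64% of all genes were. Between KO and +/+ cells 3 were higher and 3 lower in the KO (median -0.10), where 12.8% and 11.3% of all genes were. Against the KO 19 of 19 were lower in double-loss cells (median -0.96), where 20.6% of all genes were.

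Lipid handling genes moved in both directions. The cholesterol exporter Abca1 read 2200, 2254 and 1773 against 37.8, 40.9 and 28.8 (5.33 ± 0.21; 3.32 as the mean of its probe sets), lipoprotein lipase Lpl 1144, 1288 and 1674 against 21.5, 20.3 and 22.1, and apolipoprotein E (Apoe) 551, 396 and 537 against 12.5, 11.6 and 12. Of these, Apoe was under the 40th percentile of every +/+ array. Of 20 adipogenic and lipid genes 12 rose and 3 fell (median 0.34; 38.2% and 23.5% of all genes). The falls were Pparg, the main factor of fat cell formation (57.4, 52.5 and 38 against 335, 249 and 291; -2.24 ± 0.17), Fasn (-0.92 ± 0.09) and Scd1 (-0.33 ± 0.09). Pparg was also low in the Kd (82.1) and not in the KO (318).

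Extracellular matrix genes rose unevenly. Of 25 collagen genes 17 rose and 5 fell (median 0.69), where 38.2% and 23.5% of all genes did. Col14a1, a collagen that binds fibrils, went from background to signal (1162, 1477 and 1322 against 16.3, 18.9 and 18.2; 5.30 ± 0.08, 2.99 as the mean of its probe sets), and Col18a1 (3242, 4092 and 3563 against 757, 626 and 698), Col8a2, Col7a1 and Col27a1 rose by 1.96 to 2.36. Fibrillar Col3a1 rose by 0.89 ± 0.07 and Col1a1 fell by 0.43 on the log2 scale. The other falls were Col6a2 (-0.83 ± 0.09), Col6a1 (-0.65 ± 0.08), Col16a1 (-0.41 ± 0.09) and Col5a1 (-0.19 ± 0.07), for which the mean of probe sets gave 0.27. By the same mean Col3a1 and Col1a1 gave 1.41 and -0.26.

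Of 23 elastic fibre and matrix glycoprotein genes 17 rose and Emilin1 fell (-0.55 ± 0.09; list median 0.47). Periostin (Postn) read 27144, 31442 and 29683 against 5182, 4132 and 4553 (2.67 ± 0.10), and the microfibril gene Mfap2 1282, 1308 and 1363 against 241, 224 and 219. Postn averaged 12100 in the floxed control, between the +/+ and the double-loss level. Of 11 small leucine-rich proteoglycans 4 rose and 2 fell, near the shares of all genes (38.2% and 23.5%): Dcn, Ogn (15184, 13962 and 15574 against 3408, 2858 and 2754), Podn and Fmod rose, while Aspn (218, 170 and 280 against 1344, 1113 and 1102; -2.35 ± 0.13) and Omd (40.1, 46.1 and 43.6 against 144, 138 and 119; -1.33 ± 0.16) fell. With arrays centred on their median 5 fell. Of 16 matrix proteases and inhibitors 9 rose, led by Adamts9 and the gelatinase Mmp2 (24079, 24176 and 23925 against 9800, 10154 and 9372), and Adamts1, Timp1 and Mmp23 fell (-1.32, -0.86 and -0.59).

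Of 30 TGF-beta and BMP genes 22 rose (median 0.68), where 38.2% of all genes did. Inhbb, the activin B subunit, read 5647, 5148 and 5266 against 326, 385 and 256 (4.0 ± 0.14, adjusted p = 5.559e-13), Bmp4 5396, 3286 and 4038 against 334, 364 and 283 (3.61 ± 0.13), and the BMP antagonist Grem1 21763, 22413 and 22401 against 4407, 3880 and 4598. The receptors Tgfbr1, Tgfbr2, Bmpr2 and Bmpr1b rose by 0.67, 0.77, 0.95 and 1.62 (Bmpr1b by 0.75 as the mean of its probe sets). The 5 falls were Id1 (-1.35 ± 0.09), Id3 (-1.0 ± 0.07) and Id2 (-0.79 ± 0.08), which are direct targets of BMP signals, with Inhba (-0.39 ± 0.10) and Smad7 (-0.28 ± 0.08), whose call was lost as the mean of its probe sets (-0.15, adjusted p = 0.1118).

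Of 26 Wnt pathway genes 18 rose and 2 fell (median 0.71). Under other settings 13 to 19 rose, and the median ran from 0.44 to 1.39. For this list and the Notch list below, 38.2% of all genes were higher and 23.5% lower. The antagonist Dkk2 went from background to signal (337, 155 and 367 against 15.5, 14.1 and 14.7), and Rspo3, which amplifies Wnt signals, read 805, 729 and 778 against 107, 94.9 and 65.5. The ligands Wnt9a and Wnt4 rose by 2.18 and 1.76, the receptors Fzd4 and Fzd1 by 1.58 and 1.21, and the feedback target Axin2 by 0.88 ± 0.13 at a low level. Fzd5 (-0.35) and Wnt5a (-0.21) fell. The mean of probe sets gave 1.16 for Wnt4 and -0.18 for Fzd5. Of 17 Notch and pericyte genes 11 rose, led by Notch3 and Dner, with the pericyte markers Rgs5 (309, 258 and 384 against 41.7, 38.8 and 39.3) and Mcam (3444, 3354 and 3738 against 781, 891 and 963); Cspg4 (-0.81 ± 0.09) and Foxs1 (-0.47 ± 0.19) fell. The mean of the Rgs5 probe sets gave 1.64.

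RNA of most tested genes of the insulin-like growth factor axis was higher, ligands and receptors among them. Of 17 genes 14 rose, where 38.2% of all genes did, and the RNA-binding Igf2bp1 fell (-0.51 ± 0.09, list median 0.82). Beside Igf2, Igf1 read 1239, 384 and 809 against 58.0, 65.5 and 41.1 (3.41 ± 0.29), with replicate 2 the lowest of the double-loss arrays. Igfbp4 read 8607, 9626 and 8593 against 1885, 1706 and 1637. Igfbp5 rose by 1.93 ± 0.14 on a probe set that can bind several transcripts, and gave 0.28 without such probe sets. The receptors Igf1r and Insr rose by 0.76 and 1.05, or 0.28 and 0.55 as the mean of their probe sets. Of 22 imprinted genes 13 rose and Nnat and Asb4 fell (median 0.30), where 38.2% and 23.5% of all genes did. In +/+ cells 13 were higher than in the floxed control (median 0.31), where 21.5% of all genes were. The KO against +/+ had 1 higher and 11 lower, where 12.8% and 11.3% of all genes were. Peg3 read 15558, 14453 and 14222 against 1543, 1689 and 1534 (3.20 ± 0.08), and the neighbouring Zim1 116, 99.2 and 76.4 against 16.7, 17.4 and 14.7.

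Of 25 tested neuronal genes, the 3 Bex genes included, 18 were higher, where 38.2% of all genes were (10 with a filter at the 60th percentile), and Gap43 (-0.57 ± 0.13) and Map2 (-0.42 ± 0.08) were lower (median 0.60). Tubb3, the neuronal beta-tubulin, read 1751, 1808 and 1663 against 378, 356 and 366 (2.20 ± 0.12), with 1020 in the Kd and 364 in the KO. Celf4 read 1336, 1364 and 1281 against 397, 423 and 332. Of 10 germline genes 3 rose, a smaller share than the 38.2% of all genes. They were Cox6b2, Hspa2 (1.59 ± 0.13) and Brdt (1.56 ± 0.11), and Tdrkh (-0.65 ± 0.12) fell. Of 14 genes known to respond to deacetylase inhibitors, 9 rose and Gadd45b fell (-0.60 ± 0.09, list median 1.55), where 38.2% and 23.5% of all genes did. Like the other lists, this short one was drawn up with earlier results of these data known, so its count is a description only. The metallothioneins Mt1 (12546, 11073 and 11741 against 4012, 3942 and 3656) and Mt2 (10576, 9769 and 9844 against 3017, 2598 and 2349) were among the rises.

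Interferon-stimulated and antigen presentation genes were mostly higher: 14 of 24 rose and 5 fell (median 0.59). The peptide transporter Tap1 (373, 348 and 401 against 36.5, 27.3 and 39.3) and the immunoproteasome subunit Psmb8 (981, 1165 and 878 against 196, 170 and 149; 2.44 ± 0.10) rose together with Ifitm1 (888, 655 and 801 against 28.5, 29.7 and 23.0). The antiviral regulators Ifit3 and Usp18 rose by 0.95 and 1.99. The falls were Isg20 (-1.55 ± 0.11), Ifit2, Gbp3, Ifih1 and Gbp2 (-0.65 to -0.27). The mean of probe sets gave 1.73 for Tap1 and 1.31 for Psmb8. Chemokines and secreted inflammatory factors gave 9 of 24 higher and 6 lower, near the shares of all genes (38.2% and 23.5%): Cxcl12 rose (16562, 15194 and 15625 against 5326, 5275 and 5306), while Ccl2 (313, 429 and 311 against 1848, 2086 and 1639) and Il11 (174, 222 and 175 against 1109, 1017 and 898) fell. Il11 averaged 246 in the floxed control, so the +/+ cells stood high for it. The mean of the Cxcl12 probe sets gave 0.79.

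The counts of the next lists stand against 38.2% of all genes higher and 23.5% lower. Of 24 immediate early genes 13 rose and 9 fell (median 0.27): Fos (4492, 2558 and 3703 against 1435, 911 and 721) and Ier2 rose, Fosl1 (268, 277 and 252 against 1688, 1837 and 1632) and Dusp5 (102, 112 and 164 against 735, 913 and 929) fell. Of 22 NRF2 and xenobiotic genes 10 rose and 8 fell, with a median of 0.14 that became 0.03 after quantile normalization and -0.02 with arrays centred on their median. The transferase Gsta4 read 2226, 2779 and 2510 against 80.6, 69.1 and 93.9 (4.70 ± 0.12), but 1016 in the floxed control and 1941 in the KO, so that its change against the KO was 0.37. Srxn1 (-1.71 ± 0.15), Gclm (-1.0 ± 0.10) and Nqo1 (-0.83 ± 0.18) fell, Srxn1 and Gclm by 1.0 and 0.37 as the mean of their probe sets. Of 25 ATF4 and unfolded protein response genes 7 rose and 9 fell (median -0.14; 14 fell under both other scalings), with Shmt2 (2598, 2711 and 2586 against 6773, 6698 and 6440), Trib3 and Asns lower, Ppp1r15a higher and Atf4 at -0.45 ± 0.09. Of 24 contractile genes 14 rose (median 0.22), and 9 did with arrays centred on their median (median 0.05). Myh10 fell (-0.25 ± 0.07), a call lost as the mean of its probe sets (-0.13, adjusted p = 0.168). The rises were led by gamma smooth muscle actin Actg2 (9340, 8972 and 11080 against 2743, 2702 and 2990).

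Of 26 tested subunits of the Sin3, NuRD, CoREST and NCoR complexes 7 rose and 7 fell, where 38.2% and 23.5% of all genes did, with a median of 0.03 that turned negative under both other scalings. Sin3a (1037, 1252 and 1062 against 603, 714 and 640; 0.76 ± 0.12), Sin3b (0.60 ± 0.07) and Ing2 (0.77 ± 0.10) rose, and the NuRD subunits Chd3 (373, 416 and 306 against 998, 1060 and 877; -1.39 ± 0.13), Mbd3 (-0.65 ± 0.07) and Mta2 (-0.41 ± 0.09) fell. Of 12 linker and variant histones 2 rose and 6 fell (median -0.41). The centromeric histone Cenpa read 883, 1487 and 822 against 3642, 3548 and 3111, and H2aj, known to accumulate in senescent cells, 11678, 11651 and 11401 against 5418, 5314 and 5178 (1.12 ± 0.07). The mean of the Cenpa probe sets gave -1.01.

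**Figure D4:**
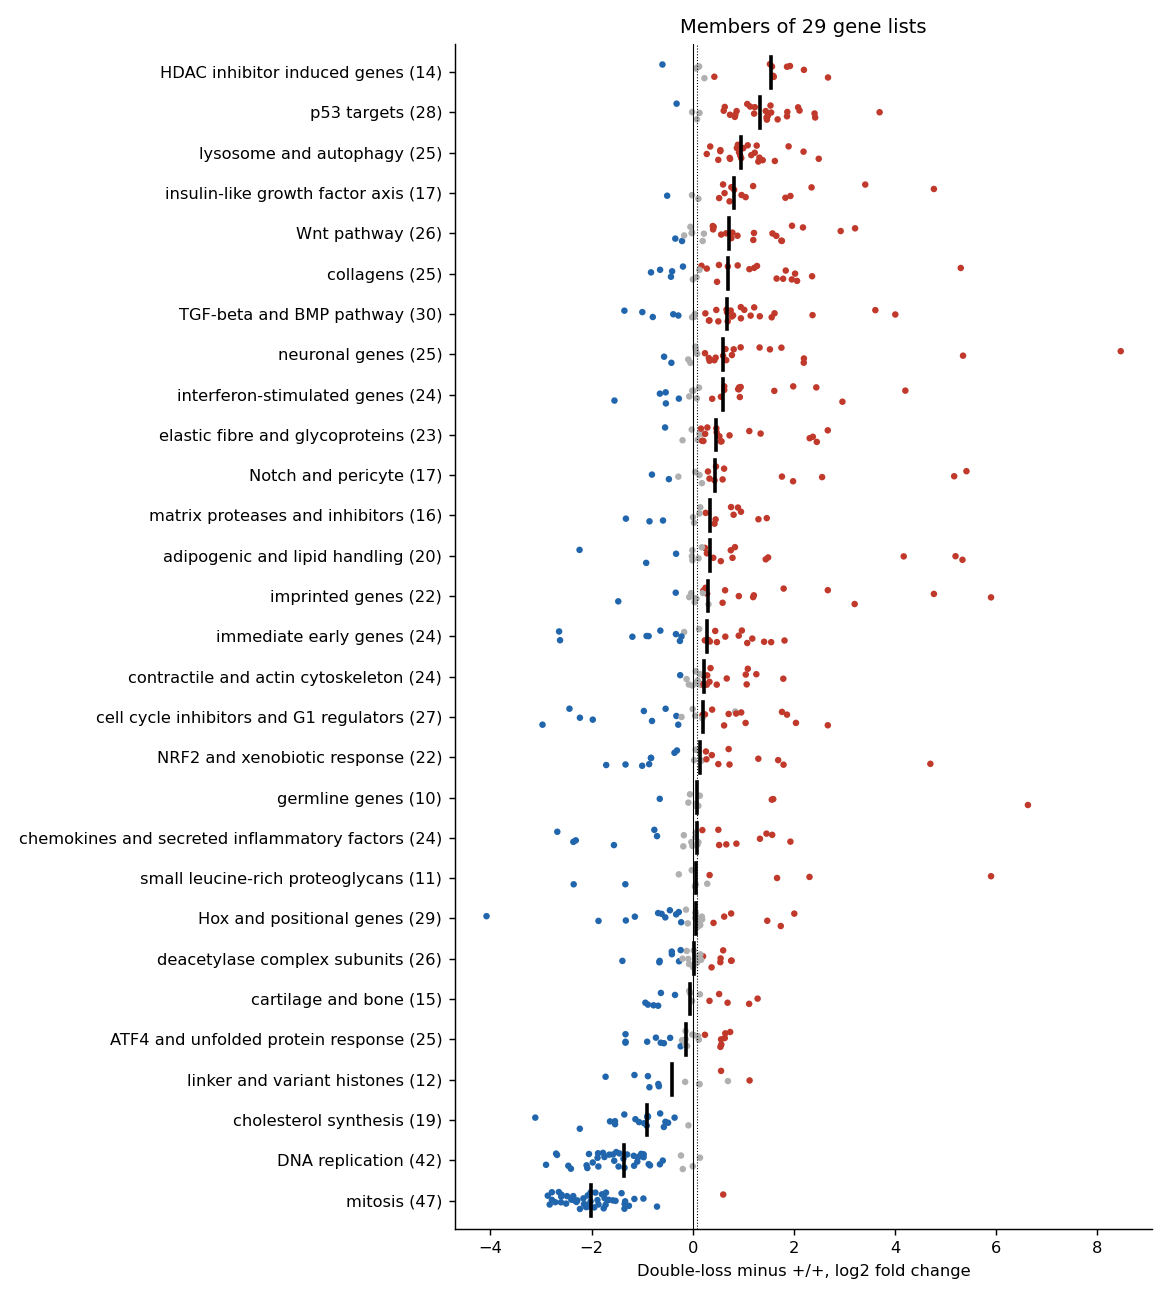
Log2 fold change (double-loss minus +/+) of every tested member of 29 gene lists, red or blue where it passed upward or downward and grey where it did not; the black bar is the list median, the dotted line the median of all genes (0.09) and the number in brackets the members tested. Mitosis (-2.02), DNA replication (-1.36) and cholesterol synthesis (-0.91) lay lowest, and genes induced by deacetylase inhibitors (1.55), p53 targets (1.34) and lysosomal genes (0.96) highest.

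Genes near background in 1 group only were mostly near background in the +/+ cells. Above their array's 40th percentile on all 3 double-loss arrays and on none of the +/+ arrays were 248 genes, and the reverse held for 65. These genes were chosen by their levels in the 2 groups, so their changes are a description only. Of the first set 245 passed, 86 of them at 2-fold or more. In the second set only 30 of the 65 passed, 4 of them at 2-fold or more. Of all tested genes 61.7% passed, 10.1% at least 2-fold higher and 4.26% at least 2-fold lower. Beside Col14a1 and Apoe, the first set held Gprasp2, a receptor-sorting protein (938, 593 and 961 against 14.8, 16.3 and 12.7), the calcium-binding S100g (484, 635 and 467 against 17.7, 15.2 and 16.2) and the neuropeptide receptor Qrfpr (503, 224 and 381 against 14.4, 13.6 and 14.0). All 3 were at 12.2 to 18.8 in the other floxed groups. The reverse set was led by Hoxa10 and Hoxc10, with Palb2, a partner of BRCA2 in DNA repair (16.3, 21.2 and 19.5 against 72.5, 52.1 and 50.3), Evi2a and Mcpt8. The promoters of the 170 genes of the first set with an entry had a median of 14 CG pairs in 300 bases, against 20 for all tested genes.

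The Hdac1 KO against the floxed ethanol control gives a comparison with no array in common. Of the 2614 genes higher in that comparison, 1794 (68.6%) were higher in double-loss against +/+ cells, which is 35.1% of the 5115 higher there. Of the 621 lower, 435 (70%) were lower, which is 13.8% of the 3142. Opposite directions were seen for 103 genes higher and 275 genes lower in double-loss cells. Of all tested genes, 19.5% were higher and 4.64% lower in the KO comparison, and 38.2% and 23.5% in double-loss against +/+ cells. Cox6b2, Dner, Nppb (1350, 1108 and 1493 against 88.7, 80.9 and 75.8), Ddit4l, Hoatz and Serpinb9b were the largest joint rises. Aspn, Omd, Enpep (151, 311 and 182 against 1115, 1058 and 914), Olfml3 and Rtl3 were, after Hdac1 itself, the largest joint falls. Enpep and Olfml3 were as low in the KO as in double-loss cells (0.01 and -0.13 between the 2). Tamoxifen differed within the KO comparison, so its own effect is part of it.

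**Figure D5:**
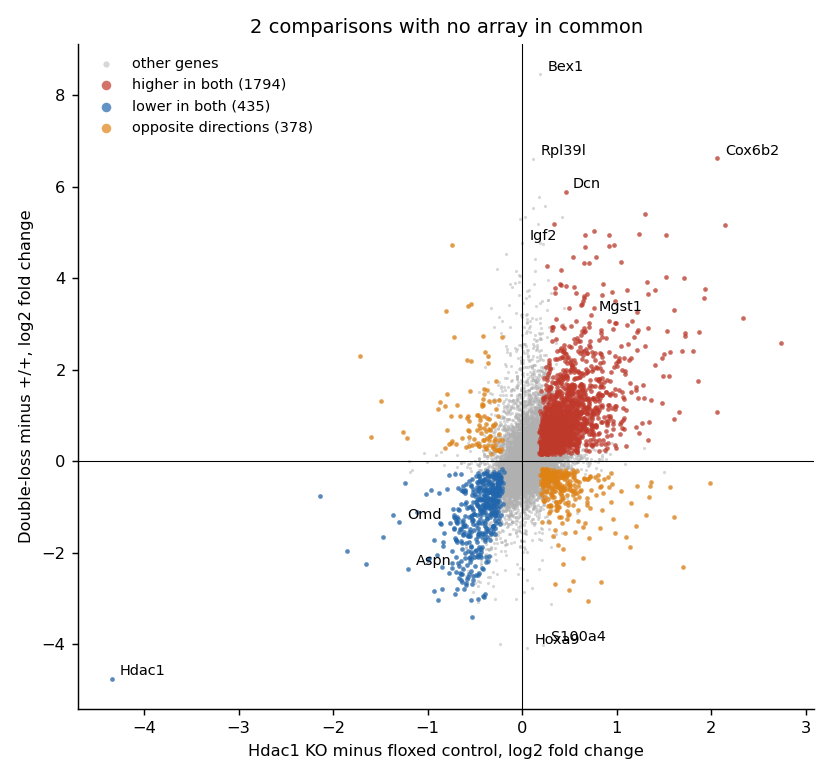
Log2 fold change of all 13382 tested genes in double-loss minus +/+ cells (vertical) against the Hdac1 KO minus floxed control (horizontal), 2 comparisons with no array in common. Genes that passed upward in both (1794) are red, downward in both (435) blue and in opposite directions (378) orange; Bex1, Rpl39l and S100a4 lay near 0 on the horizontal axis.

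The Hdac2 Kd against the same control has no array in common with the comparison either. Of its 1004 higher genes 620 (61.8%) were higher in double-loss against +/+ cells, which is 12.1% of those, and of its 404 lower genes 150 (37.1%) were lower, which is 4.77%. Of the same 404 genes 170 were higher in double-loss cells, and of the 1004 higher genes 172 were lower. These counts stand against 38.2% of all tested genes higher and 23.5% lower in double-loss against +/+ cells. In the Kd comparison, 7.5% of all tested genes were higher and 3.02% lower. Dcn, Vip, Sorbs2 (1740, 1028 and 2087 against 86.9, 95.3 and 123), Tmtc1, Foxp2 and Rcan2 were the largest joint rises, and Foxp2 stood as high in the Kd (mean 778.6) as in double-loss cells (738, 863 and 809). As the mean of probe sets, Foxp2 and Sorbs2 gave 1.5 and 2.09. Pcolce2, Hdac2, Pparg, Olfml3, Car6 and Scn3a were the largest joint falls. Rtl3, a retrotransposon-derived X-linked gene, was lower in double-loss than in +/+ cells (71.0, 119 and 65.0 against 295, 292 and 294) although the Kd raised it above the control (1569 against 761). C1qtnf3, Bnc1, Cdh6 and Ndnf had the reverse order, with Kd means of 24.6 to 263 below the control and double-loss levels above the +/+ cells.

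The difference between these effects was tested gene by gene. Double-loss minus +/+ differed from KO minus control for 6089 of 13382 genes (45.5%) and from Kd minus control for 6749 (50.4%). Over all genes, 24% had a more positive and 21.5% a more negative change than in the KO comparison. In the p53 list 16 genes had a more positive and 2 a more negative change than in the KO comparison, with a median difference of 0.34. In the mitosis list 46 of 47 had a more negative change (median -1.59). Double-loss against KO cells, a comparison that shares the double-loss arrays, differed for 7598 genes (56.8%), 4836 higher and 2762 lower. The genes with the largest difference there were Bex1, Dcn, Clca3a2, Igf2 and Mgst1 upward and S100a4, Nqo1, Pcolce2, Acta1 and Styk1 downward. Nqo1, a quinone reductase, depended in size on the reference: it read 75.7, 154 and 139 in double-loss and 178, 277 and 221 in +/+ arrays, a log2 change of -0.83 ± 0.18, whereas the KO averaged 1676 and gave -3.65.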

How the data were processed

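RNA of 15 samples in 5 groups of 3 was labelled with 1 cycle of in vitro transcription and hybridised to Affymetrix Mouse 430v2 arrays, per the labels' protocols. The deposited table holds the authors' intensity values on a linear scale for 45037 probe sets. The sources used here do not state how the authors summarised and normalised them. Of the probe sets, 34945 carried 1 gene symbol, 932 several and 9160 none in GEO's platform annotation, and only those with 1 symbol were used.

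Values were taken as log2 of intensity plus 16. Probe sets were kept when at least 3 arrays had them above the 40th percentile of the array, and each gene was represented by its kept probe set of highest mean. All 15 arrays were fitted with limma 3.58.1 in R 4.3.3 with 1 coefficient per group, eBayes and Benjamini-Hochberg adjustment over 13382 genes, at a threshold of 0.05. The script was tested on simulated data. With 3 arrays a group, the number of arrays limits the precision, and an exact permutation test of a single value could not go below p = 0.1.

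Genes named are the 4 class I deacetylases, the 15 largest changes in each direction without overlap of arrays, up to 5 members per gene list by size, the 6 brightest 2-fold changes per direction, up to 5 per direction near background in 1 group, the 6 largest joint changes per direction with each single loss, 4 per kind in opposite directions, and 5 per direction against the KO. Single members that moved against their list, the genes of printed promoters and some members named by role were chosen after their values were seen. Names of clones and models were passed over. The members and lists were chosen with earlier results of these data known. Promoters are RefSeq's, on GRCm38.p6, and 10734 of 13382 genes matched by symbol. The alternatives tried were 2 other scalings, 2 other filters, the probe set rule, the added constant, array weights, another eBayes setting, only the 6 arrays compared, the replicate block, and each array left out in turn.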

Additional observations from a re-analysis of the deposited data

How the results depend on the processing

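Scaling moved the counts most. With arrays centred on their median, 4926 genes were lower in double-loss than in +/+ cells, and against the KO 4749 were lower (4177 after quantile normalization), while the other alternatives kept the counts of higher and lower genes within 1.5 times. Leaving out each array in turn gave 4576 to 4960 higher and 2799 to 3174 lower genes. The number of genes above background only in +/+ cells was 65, and ran from 93 to 106 when 1 array was left out, since fewer arrays then had to agree. Of 281 named genes that passed, 266 kept their direction and call under the 16 or 17 settings run for each. Hdac3, which did not pass, changed sign under both other scalings. Col5a1 turned to 0.27 as the mean of its probe sets and Tnfrsf10b to 0.18 without probe sets that can bind several transcripts; the cause was not tested. The calls of Asb4, Foxs1, Wnt5a, Gbp2, Ifih1, Col5a1 and Tnfrsf10b were lost when 1 array or another was left out.

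The replicate numbers of the titles did not pair the samples: deviations of same-numbered arrays correlated at -0.03, 0.07 and 0.10. With the replicate block 5006 genes were higher and 3091 lower, and neither count moved by over 1.5 times. Among the gene lists, the number of higher macrophage markers did move. Dim genes are limited by the background of the array, where the added constant shrinks their changes.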
